A study of Mus musculus with 24 samples.

Results

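The genes described here encode the nuclear subunits of the 5 mitochondrial complexes of oxidative phosphorylation, measured in bone marrow of wild-type and Nrf2-knockout mice after spaceflight or on the ground. Members were the protein-coding genes with GENCODE M21 symbols of the Nduf, Sdh, Uqcr, Cyc1, Cox4 to Cox8 and Atp5 families. They were 86 of 54752 genes in the table, with 37 in complex I, 4 in complex II, 9 in complex III, 18 in complex IV and 18 in complex V. Of these, 80 had a TPM (transcript abundance per length, as a share of the library) above 1 in some library and entered the tests, with 12373 genes in all. The rule uses gene symbols and no measured value. Ndufab1, Usmg5 and Atpif1, known subunits or regulators with other symbols, fell outside the rule, and Ndufa4 was counted under complex I by its symbol although it is known as a subunit of complex IV.

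Oxidative phosphorylation makes most of the ATP of respiring cells. Complex I takes electrons from NADH and complex II, which is also succinate dehydrogenase of the tricarboxylic acid cycle, takes them from succinate. Both pass them through ubiquinone to complex III, and cytochrome c carries them on to complex IV, which reduces oxygen. Complexes I, III and IV pump protons, and complex V, the ATP synthase, uses the proton gradient. A few hydrophobic subunits are encoded by mitochondrial DNA, and the others by nuclear genes, so the complexes need both genomes. In bone marrow, erythroblasts and dividing progenitors hold many mitochondria, whereas mature neutrophils hold few and live largely on glycolysis.

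The 24 mice were males of C57BL/6 background, 6 each of wild-type ground controls (GC-WT), wild-type flight mice (FL-WT), Nrf2-KO ground controls (GC-KO) and Nrf2-KO flight mice (FL-KO). Flight lasted 31 days in the MHU-3 mission, and marrow of the right pelvis and tibia was taken 2 days after landing. The flight mice were 8 weeks old when shipped to the Kennedy Space Center, 3 weeks before launch, and the ground experiment was run in Tsukuba, so that flight, shipping and site cannot be told apart. The mice are separate animals, and p-values set differences between group means against the spread between mice. How the Nrf2-KO allele was made is not given in the sources used here. Each mouse gave a library from cryopreserved cells. Nfe2l2, the gene of Nrf2, was at 21.3 ± 3.19 TPM in GC-WT mice and 4.97 ± 1.25 TPM in GC-KO mice (SD, n = 6 each). It was at 18.6 ± 5.93 TPM in FL-WT mice and 3.06 ± 0.794 TPM in FL-KO mice.

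TPM is a share of each library, per transcript length, and the table gives no counts, so the depth of the libraries is unknown. In each library, 5 small RNAs (Rmrp, Rpph1, Rn7sk, Rn7s1 and Rn7s2) held 35.4% to 59.6% of TPM, and over 55% in 4 libraries, GC-WT 03 and 05, FL-WT 05 and FL-KO 02. There are 4 comparisons, and runs of 4 values follow their order. They are flight in wild-type mice (FL-WT vs. GC-WT), flight in Nrf2-KO mice (FL-KO vs. GC-KO), Nrf2 loss on the ground (GC-KO vs. GC-WT) and Nrf2 loss in flight (FL-KO vs. FL-WT). Log2 fold changes had medians over all genes of -0.24, -0.29, -0.22 and -0.25. When libraries were scaled by median of ratios, these medians lay between 0.00 and 0.03. With quantile normalization they were at 0.01, 0.03, 0.03 and 0.07, and with the trend of length and GC content removed at 0.02, 0.04, 0.02 and 0.04. Without the 5 small RNAs they were at -0.31, -0.21, -0.35 and -0.23. These are the 4 other scalings named below. Where a scaling raises the median of all genes, rises keep their calls more easily and falls less easily. A call here therefore depends on the scale, and the median of the members is given beside that of all genes. Fold changes are on the scale of log2(TPM + 1), and a gene was called at a Benjamini-Hochberg adjusted p under 0.1 in a limma fit of all 24 libraries.

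The promoters of 3 genes are shown, each with the largest rise or the largest fall among the members in a comparison. Sdha fell most in Nrf2-KO mice, Uqcrh rose most in Nrf2-KO mice on the ground, and Cox6b2 fell most in FL-KO vs. GC-KO. The sequences are from RefSeq (GRCm38.p6), all on the minus strand and written 5′ to 3′, and stop before the gene body of GENCODE. Capitals mark matches to 1 of 4 motifs searched on both strands, GCGCA, any base and GCGC in a run for nuclear respiratory factor NRF1 (a protein distinct from Nrf2), CCGGAAG for the ETS factor GABP, AANATGGC for YY1 and TGACNNNGC, the core of the antioxidant response element that Nrf2 binds.
Sdha, chr13:74350281-74350490: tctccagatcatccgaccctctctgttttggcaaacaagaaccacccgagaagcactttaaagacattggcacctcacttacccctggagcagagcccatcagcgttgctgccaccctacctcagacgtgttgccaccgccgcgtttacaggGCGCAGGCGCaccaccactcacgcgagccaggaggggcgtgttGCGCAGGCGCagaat
Uqcrh, chr4:116075072-116075320: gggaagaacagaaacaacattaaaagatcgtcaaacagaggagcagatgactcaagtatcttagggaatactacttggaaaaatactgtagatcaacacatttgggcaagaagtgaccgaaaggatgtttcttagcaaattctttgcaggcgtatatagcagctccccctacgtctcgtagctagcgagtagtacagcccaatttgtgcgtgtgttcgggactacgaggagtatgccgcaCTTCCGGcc
Cox6b2, chr7:4753095-4753344: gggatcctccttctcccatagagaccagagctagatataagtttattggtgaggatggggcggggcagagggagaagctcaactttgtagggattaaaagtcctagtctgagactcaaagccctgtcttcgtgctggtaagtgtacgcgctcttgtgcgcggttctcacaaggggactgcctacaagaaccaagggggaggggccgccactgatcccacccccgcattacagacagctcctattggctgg
The Sdha window holds 2 matches to the NRF1 motif, the Uqcrh window 1 match to the GABP motif on the opposite strand, and the Cox6b2 window none of the 4. RefSeq promoters were matched for 67 of 85 member symbols, 72 promoters in all. In the 250 bases before the RefSeq start, the NRF1 motif was in 19.4% of member promoters and in 3.74% of all 32851 promoters. The GABP motif was in 16.7% of member promoters and 6.91% of all, and the YY1 motif in 8.33% and 3.91%. The antioxidant response core was in 9.72% of member promoters and 10.2% of all. A match of letters is a description and does not show binding in marrow.

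The subunit genes differed widely in level. Cox4i1, a nuclear subunit of complex IV, was the most abundant at a mean of 192 TPM over the 24 mice, followed by Atp5e at 176 TPM and Atp5l at 166 TPM, both small subunits of the ATP synthase. Ndufa4 led the complex I symbols at 113 TPM, Uqcrh complex III at 103 TPM and Sdhb complex II at 28.4 TPM. The lowest of the broadly used subunits were Ndufs1, the largest subunit of complex I, at 6.87 TPM and Ndufa5 at 8.13 TPM. Values of Ndufs1 are less certain because it overlaps Eef1b2 on the opposite strand, which was at 131 TPM. Reads of Ndufb4, at 15.8 TPM, may have been split with Ndufb4c, a processed pseudogene listed at 55 TPM.

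**Figure D1:**
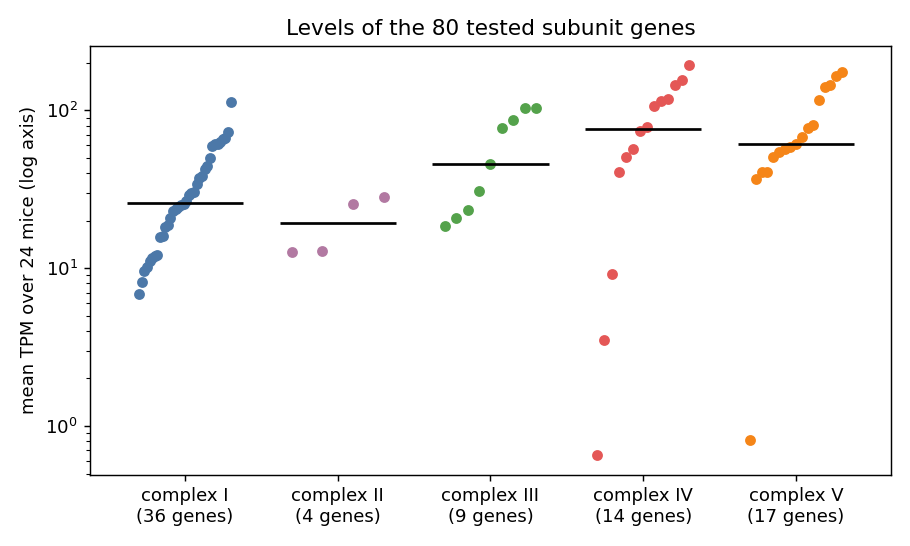
Each point is the mean TPM over 24 mice (log axis) of a tested subunit gene, and the black lines are medians of each complex. Cox4i1 tops complex IV at 192 TPM, and the lowest points are Cox7a1 and Atp5s, which passed the filter in few libraries.

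Of subunits with tissue forms, the common forms had the higher levels in marrow. Of 13 tested genes of these families, 1, 4, 0 and 3 fell and 1, 0, 3 and 0 rose in the 4 comparisons, where 39.0%, 53.1%, 42.9% and 47.2% of all genes were called lower and 0.994%, 0.299%, 3.13% and 1.91% higher. Cox6a1 was at 106 TPM and Cox6a2, the heart and skeletal muscle form, at 3.53 TPM. Cox6b1 was at 114 TPM and Cox6b2, known from testis, at 9.25 TPM. Cox7a2 was at 78.3 TPM and the muscle form Cox7a1 at 0.654 TPM. Cox4i2, Cox7b2, Cox8b, Cox8c and Ndufa4l2 reached at most 0.37, 0.06, 0.22, 0.13 and 0.07 TPM in any mouse and were not tested, like a second Atp5o entry, a readthrough locus listed at 0 in each library. Of 10 skeletal muscle markers, 6 stayed under 1 TPM in each library, while Mylpf was at 1.21 to 4.05 TPM. Of 6 adipocyte markers, Ucp1 and Cidea were listed at 0 in each library, Plin1 and Cidec reached at most 0.04 and 0.02 TPM, Adipoq was at 0.31 to 2.40 TPM and Fabp4 at 3.06 to 8.68 TPM. Their part in the levels of the muscle forms was not tested. The 3 genes of the ATP synthase c subunit, which encode the same mature protein, were all present, in the order Atp5g2, Atp5g3 and Atp5g1, at 77.7, 58.7 and 40.7 TPM.

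The summed level of the members stayed at about the same share of messenger RNA in the 4 groups. The sum was between 3249 and 5382 TPM per mouse, with means of 4186 ± 703 TPM in GC-WT mice, 4336 ± 747 TPM in FL-WT mice, 4554 ± 366 TPM in GC-KO mice and 4219 ± 495 TPM in FL-KO mice (n = 6 each, SD). As a share of the TPM of protein-coding genes, it was 0.890% ± 0.102, 0.904% ± 0.0443, 0.889% ± 0.0697 and 0.924% ± 0.0671, in the same order. The groups overlapped in this share, whose range over 24 mice was 0.810% to 1.05%. Complex II had the smallest sum, at 86.7 ± 10.004, 83.0 ± 18.6, 79.0 ± 10.9 and 69.4 ± 10.2 TPM in that order. Complex V had the largest, at 1335 ± 226, 1387 ± 240, 1442 ± 123 and 1320 ± 150 TPM. In bulk marrow, fewer cells of a type and less RNA per cell cannot be told apart.

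With flight in wild-type mice, Cox6b2 fell, and Uqcrb, Cox7b and Ndufa1 rose, on the scale of TPM as deposited. Of 80 members, 1 was called lower, where 39.0% of all tested genes were, and 3 were called higher, where 0.994% of all tested genes were. These counts depend on the scale and on single libraries. With median-of-ratios scaling, 66 were called higher and 0 lower, where 20.6% and 13.6% of all genes were. With the trend of length and GC content removed, 38 and 0 were, where 17.6% and 15.4% of all genes were. With a library left out, 0 to 12 were called higher and 0 to 9 lower, and the share of all genes is not given. The median log2 fold change of the members was 0.03, which is 0.27 above the median of all genes, and 76 of 80 members lay above that median. By complex, the medians were 0.06 in I, -0.05 in II, 0.03 in III, -0.01 in IV and 0.05 in V. No member had flight and ground groups that did not overlap, where 4.19% of all genes had non-overlapping lower values and 0.0970% higher ones. The fold change was below 0 in 35 members and in 86.4% of all genes.

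Uqcrb, a small subunit of complex III at the ubiquinone site (chromosome 13, 66900617 to 66905378), was between 29.5 and 46.9 TPM in GC-WT mice, with a median of 37.9. In FL-WT mice it was between 34.9 and 70.7 TPM, with a median of 45.4, and the groups overlapped. Its log2 fold change was 0.33 ± 0.14 (SE, adjusted p = 0.0814). Uqcrb was also the only member called higher by flight in Nrf2-KO mice, in which no mouse is shared, at 0.30 ± 0.14 (SE, adjusted p = 0.0914). There it lay between 36.6 and 49.6 TPM with a median of 41.5 in GC-KO mice, and between 46.2 and 64.3 TPM with a median of 48.7 in FL-KO mice. Both calls were kept under each of the 4 other scalings. The FL-KO call was lost in 10 of 12 fits without a library and the FL-WT call in 6 of 12, in those without GC-WT 03, 05, 07 or 08 or FL-WT 07 or 10. Cox7b, a small subunit of complex IV, rose by 0.32 ± 0.13 (adjusted p = 0.0580) in FL-WT mice, and Ndufa1, a small membrane subunit of complex I, by 0.26 ± 0.12 (adjusted p = 0.0831). The Cox7b call was lost in 4 of 12 fits, those without GC-WT 03, 05 or 07 or FL-WT 10, and the Ndufa1 call in 6 of 12, those without GC-WT 03, 05, 06 or 07 or FL-WT 08 or 10.

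Cox6b2 (chromosome 7, 4751792 to 4753094) fell with flight in both genotypes. It was between 8.79 and 12.7 TPM in GC-WT mice with a median of 10.2, and between 6.22 and 10.2 TPM with a median of 7.97 in FL-WT mice, with overlap. The log2 fold change was -0.33 ± 0.12 (SE, adjusted p = 0.0453), and the call was lost without GC-WT 06 or FL-WT 05. In Nrf2-KO mice, it was between 9.37 and 12.4 TPM with a median of 11.7 on the ground, and between 5.59 and 8.74 TPM with a median of 7.10 after flight. All FL-KO mice were below all GC-KO mice, with a log2 fold change of -0.62 ± 0.12 (adjusted p = 0.00053). With median-of-ratios scaling, the values were 0.02 in wild-type mice (adjusted p = 0.923) and -0.21 in Nrf2-KO mice (adjusted p = 0.177). The common form Cox6b1 was at 114 ± 16.9 TPM in GC-WT mice, 122 ± 26.3 TPM in FL-WT mice, 111 ± 11.2 TPM in GC-KO mice and 109.6 ± 11.7 TPM in FL-KO mice, and was not called.

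**Figure D2:**
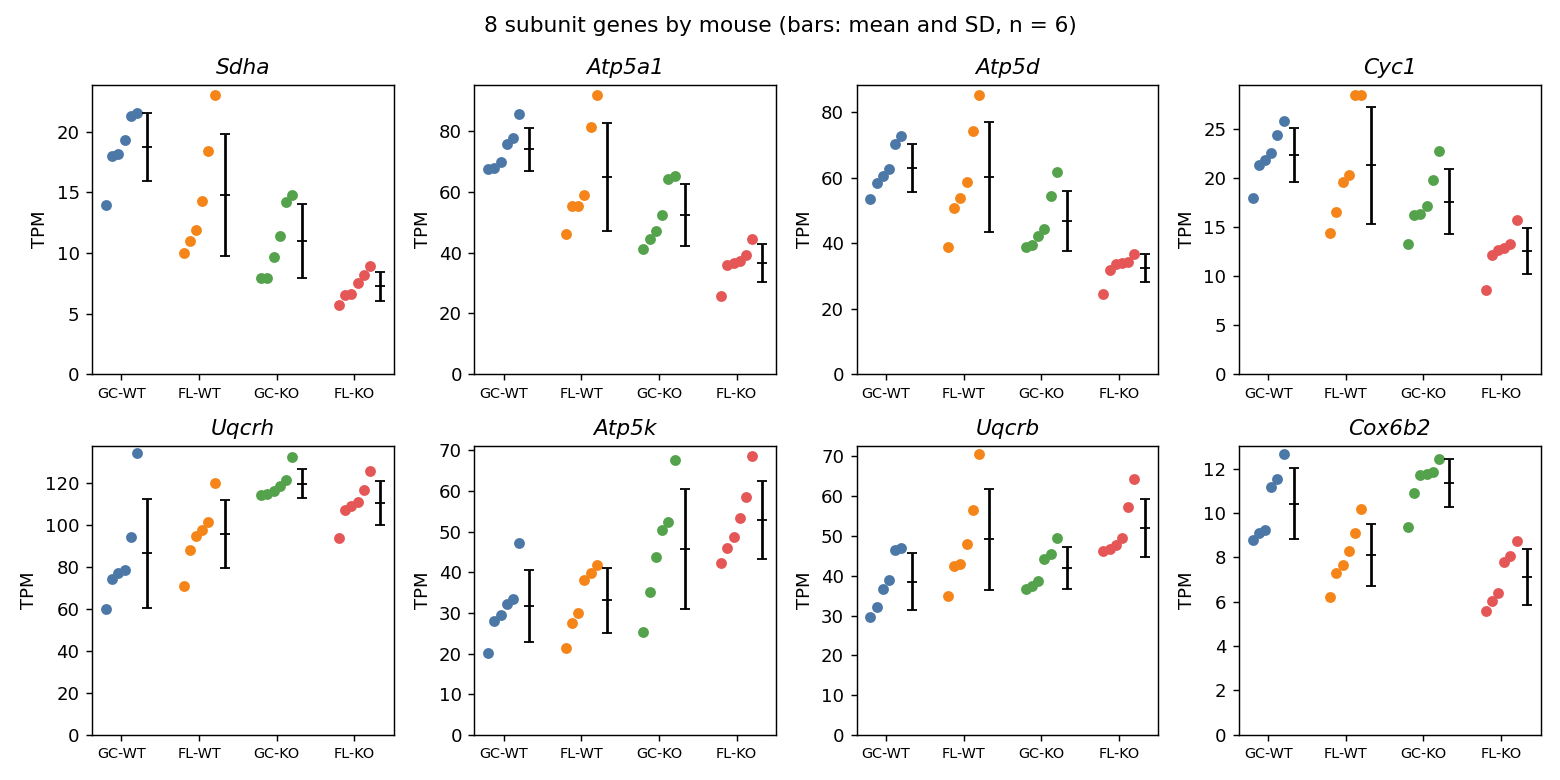
Each panel gives the TPM of a gene in each of 24 mice by group, with the mean and SD (n = 6) beside the points. Sdha, Atp5a1, Atp5d and Cyc1 step down to FL-KO, where Sdha ends at 5.68 to 8.91 TPM, while Atp5k is higher in Nrf2-KO groups and Cox6b2 lower in flight groups.

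With flight in Nrf2-KO mice, 17 members were called lower, where 53.1% of all genes were, and 1 higher, where 0.299% of all genes were called higher. The fold change was below 0 in 67 members and in 93.5% of all genes. The median of the members was -0.12, 0.17 above that of all genes. Of the 17 that fell, 10 are on a list of core subunits, given with the comparison of core and other members. In complex I they included Ndufv1, which binds NADH, Ndufs1 and Ndufs3, and the accessory subunits Ndufa10 and Ndufb11. In complex II it was Sdha, in complex III Cyc1, Uqcrc1 and Uqcrfs1 (cytochrome c1, a core protein and the Rieske iron-sulfur protein), in complex IV Cox6a2, Cox6b2 and Cox8a, and in complex V Atp5a1, Atp5b, Atp5d and Atp5g2. Of the 17, 16 were examined under the 4 other scalings, and none of these kept its call under all of them. In 4 of the 17, Ndufb11, Cox6b2, Atp5d and Atp5g2, the groups did not overlap, where 18.4% of all genes had non-overlapping lower values. No member had non-overlapping higher values, where 0.0323% of all genes did.

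Nrf2 loss on the ground moved the subunit genes in both directions. Here 7 members were called lower, where 42.9% of all genes were, and 19 higher, where 3.13% of all genes were. The median was 0.09, 0.31 above that of all genes, with 28 members and 77.1% of all genes below 0. In Atp5a1 alone the groups did not overlap, where 9.15% of all genes had non-overlapping lower values and 0.218% higher ones. Those that fell were Sdha, Atp5a1, Atp5d, Ndufv1, Uqcrc1, Cyc1 and Atp5b. Of 12 fits without a library, Sdha, Atp5a1 and Atp5d were called in 12, Ndufv1 in 11 (lost without GC-KO 04), Uqcrc1 in 9 (lost without GC-WT 08, GC-KO 01 or GC-KO 04), Atp5b in 5 and Cyc1 in 3. The last of these, Cyc1, kept its call only without GC-WT 03, GC-KO 11 or GC-KO 12, and Atp5b only without those or GC-WT 05 or 10. Those that rose were Uqcrh and Uqcrq of complex III, Cox6c, Cox7a2 and Cox7b of complex IV, Atp5e, Atp5k, Atp5j2, Atp5l and Atp5mpl of complex V, and Ndufa4, Ndufa5, Ndufa7, Ndufb2, Ndufb4, Ndufb8, Ndufb9, Ndufc1 and Ndufs4. With the 4 libraries over 55% small RNA left out, 13 were called lower and 8 higher. Without GC-WT 03 the counts were 12 and 11, and without GC-WT 10, 32 members were called higher. For these fits with libraries left out, the share of all genes called is not given. Of the 19 higher calls, 14 were kept under all of the 4 other scalings, and of the 7 lower calls that of Sdha. All but removal of the small RNAs raised the median of all genes, which favours rises, so these counts do not compare rises with falls.

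Sdha, the flavoprotein subunit that oxidizes succinate (ENSMUSG00000021577.14, chromosome 13, 74322254 to 74350280), had the largest fall in Nrf2-KO mice. It was between 14.0 and 21.6 TPM in GC-WT mice with a median of 18.7, and between 7.91 and 14.8 TPM with a median of 10.5 in GC-KO mice. The ranges touched only between the lowest GC-WT mouse and the 2 highest GC-KO mice, and the log2 fold change was -0.75 ± 0.17 (SE, adjusted p = 0.00174). In flight, Sdha was between 9.96 and 23.0 TPM with a median of 13.1 in FL-WT mice, and between 5.68 and 8.91 TPM with a median of 7.08 in FL-KO mice. All FL-KO mice were below all FL-WT mice, with a log2 fold change of -0.89 ± 0.17 (adjusted p = 0.00016). Both calls were kept in each fit without a library and under each scaling, at -0.43 on the ground and -0.53 in flight with median-of-ratios scaling. The other subunits of complex II were not called in any of the 4 comparisons. The iron-sulfur subunit Sdhb was at 28.0 ± 6.48 TPM in GC-WT mice, 28.7 ± 4.94 TPM in FL-WT mice, 29.9 ± 3.47 TPM in GC-KO mice and 27.1 ± 4.24 TPM in FL-KO mice.

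Uqcrh, the hinge protein of complex III that binds cytochrome c1 (chromosome 4, 116066965 to 116075071), rose most on the ground. It was between 60.2 and 134 TPM with a median of 77.995 in GC-WT mice, and between 115 and 133 TPM with a median of 118 in GC-KO mice. Of the GC-WT mice, 5 were below all GC-KO mice, and 1 (GC-WT 10) was above all of them. The log2 fold change was 0.51 ± 0.14 (adjusted p = 0.00563), and it was called in each fit without a library. In the flight groups it was at 95.7 ± 16.2 TPM in FL-WT and 111 ± 10.6 TPM in FL-KO mice, and the log2 fold change was 0.22 ± 0.14 (adjusted p = 0.22).

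With Nrf2 loss in flight, 18 members were called lower, where 47.2% of all genes were, and 2 higher, where 1.91% of all genes were called higher. The median of the members was -0.05, 0.20 above that of all genes, with 44 members and 79.1% of all genes below 0. After Sdha, the largest falls were in Atp5d, Atp5a1, Cyc1, Uqcrc1, Atp5b, Ndufv1 and Atp5g2. Sdha, Atp5a1, Atp5b and Atp5d kept their calls under all of the 4 other scalings, and so did both genes that rose, Atp5k and Ndufa5. The groups did not overlap in Sdha, Atp5a1, Atp5d and Atp5g2, where 20.6% of all genes had non-overlapping lower values, or in Atp5k, where 0.307% of all genes had non-overlapping higher values. The comparisons of genotype and of flight share mice.

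The catalytic head and central stalk of the ATP synthase held several of these falls, but not all of their subunits fell. Atp5a1, the alpha subunit, was between 46.3 and 92.0 TPM with a median of 57.3 in FL-WT mice, and between 25.9 and 44.5 TPM with a median of 37.0 in FL-KO mice. Its log2 fold change was -0.79 ± 0.15 (adjusted p = 0.000138). On the ground, the 6 GC-KO mice, between 41.4 and 65.3 TPM, were also below the 6 GC-WT mice, between 67.7 and 85.8 TPM, at -0.51 ± 0.15 (adjusted p = 0.00986). Atp5d, the delta subunit of the central stalk, was between 38.9 and 85.2 TPM with a median of 56.2 in FL-WT mice, and between 24.3 and 36.8 TPM with a median of 33.8 in FL-KO mice, at -0.84 ± 0.15 (adjusted p = 6.9e-05). The catalytic beta subunit, Atp5b, was at 126 ± 34.7 and 82.0 ± 14.0 TPM, at -0.59 ± 0.15 (adjusted p = 0.00205). The gamma subunit, Atp5c1, was at 64.8 ± 12.8 and 65.1 ± 7.73 TPM, at 0.02 ± 0.13 (adjusted p = 0.92). Atp5c1 was not called in any of the 4 comparisons. Atp5e, the epsilon subunit of the central stalk, was at 166 ± 33.7 and 191 ± 27.6 TPM, at 0.22 ± 0.17 (limma, adjusted p = 0.337). On the ground Atp5e was called higher, at 0.47 ± 0.17 (limma, adjusted p = 0.0327), a call lost without GC-WT 06. The tests did not compare Atp5c1 or Atp5e with the other subunits of this part.

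Atp5k, the small e subunit in the membrane part of the ATP synthase (chromosome 5, 108433244 to 108434448), went the other way. It was between 21.5 and 41.7 TPM with a median of 34.2 in FL-WT mice, and between 42.4 and 68.8 TPM with a median of 51.0 in FL-KO mice. All FL-KO mice were above all FL-WT mice, at a log2 fold change of 0.68 ± 0.20 (adjusted p = 0.00703). On the ground it was between 20.2 and 47.1 TPM with a median of 30.9 in GC-WT mice, and between 25.4 and 67.7 TPM with a median of 47.1 in GC-KO mice, at 0.49 ± 0.20 (adjusted p = 0.0531). These groups overlapped, and the call was lost without GC-WT 03, GC-KO 09 or GC-KO 12. Ndufa5, an accessory subunit of the matrix arm of complex I, was at 7.35 ± 1.55 TPM in FL-WT and 9.66 ± 1.51 TPM in FL-KO mice, at 0.36 ± 0.14 (adjusted p = 0.0362).

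**Figure D3:**
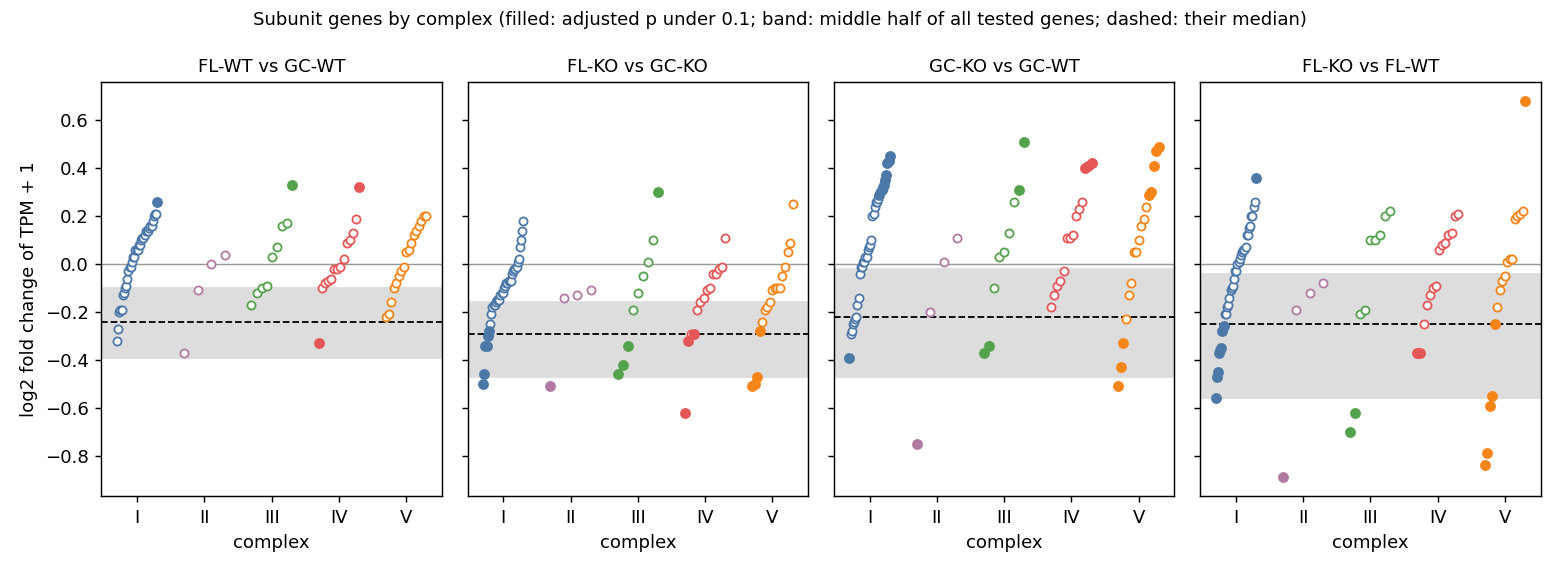
Each point is the log2 fold change of TPM + 1 of a member in 1 of 4 comparisons, by complex, filled where the adjusted p was under 0.1. The grey band runs between the quartiles of all tested genes and the dashed line their median, -0.22 to -0.29, above which most members lie.

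No member had an effect of flight that was called different between the genotypes. The interaction was called in 0 of 80 members and in 0.0162% of all genes at an adjusted p under 0.1 with limma. At an unadjusted p under 0.05, it was below 0 in 2 members, Ndufb11 and Atp5g2, at -0.45 ± 0.17 and -0.42 ± 0.17, where 3.03% of all genes were, and above 0 in 0, where 0.428% of all genes were. The difference was below 0 in 71 of 80 members and in 65.8% of all genes. For Sdha it was -0.15 ± 0.25 and for Cox6b2 -0.29 ± 0.17 (limma, adjusted p = 0.999951 for each). None of the calls reached a fold change of 2, the minimum of the study, with which 0.938%, 2.13%, 3.04% and 8.36% of all genes were called lower and 0.0647%, 0, 0.129% and 0.0970% higher.

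The members other than a list of 21 core subunits stood further above the median of all genes than that list did. The core list holds 7 conserved subunits of complex I, Ndufs1 and Ndufv1 among them, all 4 of complex II, Cyc1, Uqcrfs1, Uqcrc1 and Uqcrc2 of complex III, Cox4i1, Cox5a and Cox5b of complex IV, and Atp5a1, Atp5b and Atp5c1 of complex V. The name is loose, since the catalytic centre of complex IV is encoded by mitochondrial DNA and Cox4i1, Cox5a and Cox5b surround it. The median log2 fold change was -0.11, -0.25, -0.17 and -0.25 over the core list and 0.08, -0.10, 0.19 and 0.04 over the other 59 members, where all genes had -0.24, -0.29, -0.22 and -0.25. Relative to all genes, the core list was thus at 0.13, 0.03, 0.05 and 0.00 and the others at 0.32, 0.19, 0.42 and 0.29. On the core list, 0, 10, 6 and 10 genes were called lower (0%, 47.6%, 28.6% and 47.6%), where 39.0%, 53.1%, 42.9% and 47.2% of all genes were, and 0 were called higher in any comparison. Of the other members, 1, 7, 1 and 8 were called lower and 3, 1, 19 and 2 higher, where 0.994%, 0.299%, 3.13% and 1.91% of all genes were higher.

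In single mice, the gap between core and other members went from 0.22 ± 0.11 in GC-WT mice to 0.07 ± 0.11 in FL-WT mice, -0.05 ± 0.07 in GC-KO mice and -0.23 ± 0.10 in FL-KO mice (log2, relative to the mean of 24 mice, SD, n = 6 each). Its range was 0.08 to 0.41 in GC-WT and -0.38 to -0.07 in FL-KO mice, so these groups did not overlap. For Nrf2 loss on the ground and in flight, the gap was -0.36 and -0.30 in TPM as deposited. Scaling by median of ratios and removal of the small RNAs multiply all genes of a library by the same factor. They therefore nearly cancel in the gap, at -0.38 and -0.27 with median of ratios, and do not test it. Quantile normalization and removal of the trend of length and GC content could change the gap. Under each of these it kept its sign in the 4 comparisons. It was smaller for Nrf2 loss, at -0.25 and -0.19 with quantile normalization and -0.20 and -0.17 with the trend removed. The gap is given as a description of 2 lists, with no test.

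**Figure D4:**
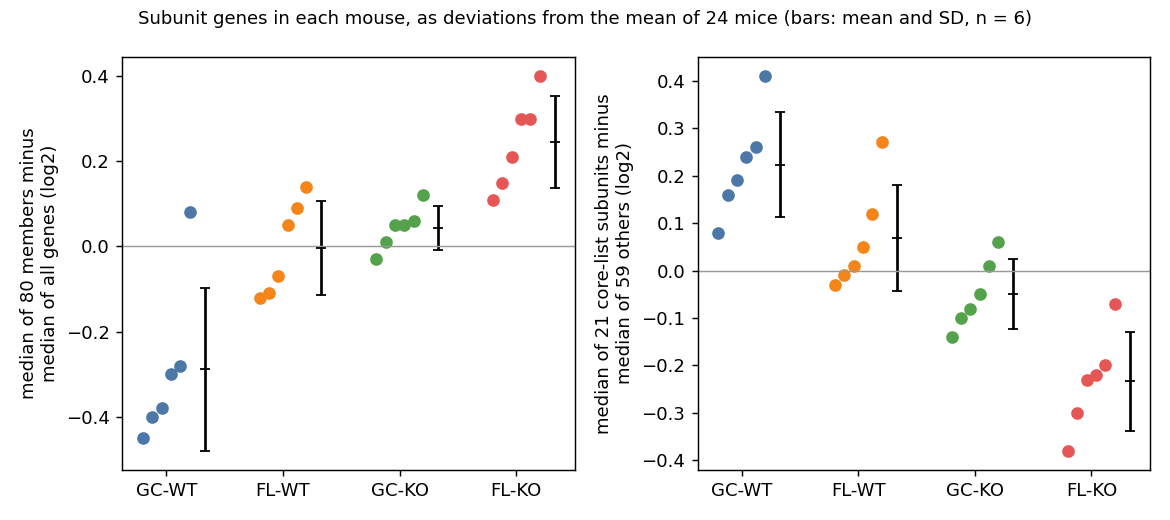
Points are mice, as log2 deviations from the mean of 24, with the mean and SD of each group (n = 6). Left, the median of 80 members less that of all genes rises from GC-WT, where a single mouse (GC-WT 10) stands at 0.08 and the others at or below -0.28, to FL-KO; right, the core list less the other members falls from GC-WT to FL-KO.

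Transcript length and GC content moved with these fold changes. The members are short, with a median longest transcript of 1025.5 nt against 2990.5 nt in all tested genes, and a GC content of 50.2% against 49.1%. The core list had a median of 1735 nt and the others 875 nt. Over the 80 members, Spearman's rho of fold change with length was -0.20, -0.27, -0.23 and -0.27, and with GC content -0.35, -0.25, -0.30 and -0.26. Over all genes, rho with length was -0.37, -0.32, -0.35 and -0.28, and with GC content -0.03, -0.29, -0.43 and -0.51. These are correlations across genes of the same libraries, not across replicates. With the trend removed in each library, 38, 22, 38 and 28 members were called higher and 0, 3, 5 and 15 lower, where 17.6%, 19.7%, 23.5% and 30.0% of all genes were higher and 15.4%, 15.5%, 22.4% and 24.1% lower. With median-of-ratios scaling, 66, 52, 61 and 55 members were called higher and 0, 0, 2 and 7 lower, where 20.6%, 19.1%, 28.3% and 31.9% of all genes were higher and 13.6%, 20.4%, 28.9% and 32.9% lower.

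**Figure D5:**
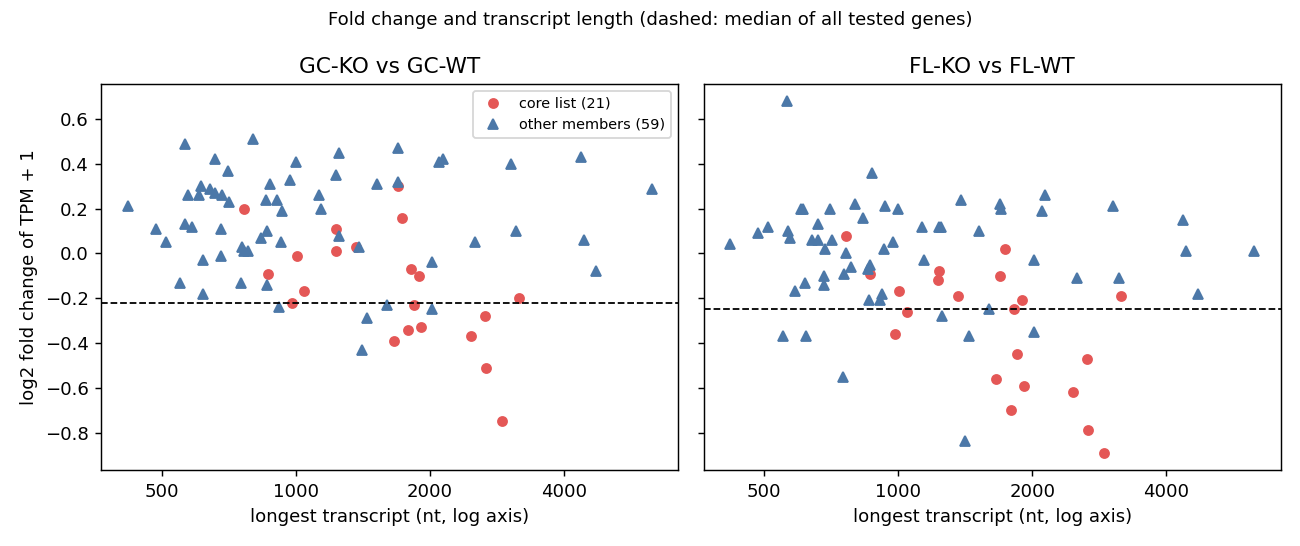
Log2 fold change of each member against the length of its longest transcript (log axis, nt) in both comparisons of genotype, with the core list as circles and other members as triangles. The core list has a median of 1735 nt and the others 875 nt, and the dashed line is the median of all tested genes.

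Other genes of mitochondrial respiration are given by list, where 39.0%, 53.1%, 42.9% and 47.2% of all genes were called lower and 0.994%, 0.299%, 3.13% and 1.91% higher. Of the 13 subunits encoded by mitochondrial DNA, 7, 2, 8 and 2 rose and 0, 0, 0 and 1 fell. mt-Atp6, the membrane subunit of the ATP synthase that forms its proton path, rose from a mean of 408 to 758 TPM in FL-WT vs. GC-WT, at 0.91 ± 0.14 (adjusted p = 6.7e-05). Their summed share of protein-coding TPM was 1.47% ± 0.383 in GC-WT mice, 1.91% ± 0.442 in FL-WT mice, 1.82% ± 0.144 in GC-KO mice and 2.23% ± 0.417 in FL-KO mice. Of 16 genes of the tricarboxylic acid cycle, 4, 9, 7 and 11 fell (25%, 56.2%, 43.8% and 68.8%) and 0 rose, and their medians less that of all genes were 0.08, 0.01, -0.04 and -0.11. Ogdh, of the 2-oxoglutarate dehydrogenase complex, was at a mean of 22.7 TPM in GC-WT and 12.3 TPM in GC-KO mice, at -0.85 ± 0.20 (adjusted p = 0.00208).

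Of 17 regulators of respiratory genes, 8, 11, 9 and 9 fell (47.1%, 64.7%, 52.9% and 52.9%, against 39.0%, 53.1%, 42.9% and 47.2% of all genes) and 0 rose, with relative medians of -0.03, -0.02, -0.08 and -0.11. Polrmt, the RNA polymerase of mitochondria, fell from a mean of 1.94 to 0.963 TPM in GC-KO vs. GC-WT, at -0.58 ± 0.13 (adjusted p = 0.00106). Of 45 assembly factors, 5, 6, 5 and 8 fell (11.1% to 17.8%) and 0, 0, 2 and 0 rose. Of 21 genes of electron carriers, ubiquinone synthesis and nucleotide transport, 4, 6, 9 and 10 fell (19.0%, 28.6%, 42.9% and 47.6%) and 0 rose. Of 78 mitochondrial ribosomal proteins, 2, 8, 8 and 14 fell (2.56% to 17.9%) and 0, 0, 2 and 0 rose. Of 91 cytosolic ribosomal proteins, short transcripts as many members are, 2, 7, 6 and 7 fell (2.20% to 7.69%) and 0, 0, 46 and 26 rose (50.5% and 28.6% in the comparisons of genotype, against 3.13% and 1.91% of all genes). The medians of these lists less that of all genes in GC-KO vs. GC-WT were -0.04 for the tricarboxylic acid cycle, -0.08 for regulators, 0.20 for assembly factors, 0.05 for carriers, 0.20 for mitochondrial and 0.51 for cytosolic ribosomal proteins, 0.72 for mitochondrially encoded subunits, and 0.31 for the members.

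Markers of the marrow cells moved with the groups as well. Of 12 erythroid markers, 11 were in the table, each over 1 TPM in every library, and their sum was 975 to 2090 TPM in GC-WT mice, 733 to 1234 TPM in FL-WT mice, 1379 to 2337 TPM in GC-KO mice and 766 to 1199 TPM in FL-KO mice. The 9 neutrophil markers were over 1 TPM in every library and summed to 29625 to 55659, 44358 to 62236, 41731 to 63964 and 50023 to 67222 TPM. Most of this sum was S100a8 and S100a9, at means of 15105, 21793, 20955 and 23347 TPM and 16573, 23964, 22045 and 25261 TPM. Other markers on the list went differently, with Ltf at means of 628, 582, 218 and 106 TPM, Ngp at 3814, 4144, 2405 and 2132 TPM and Mmp8 at 195, 249, 120 and 126 TPM. The 4 promyelocyte markers summed to 571 to 958, 500 to 1163, 338 to 761 and 299 to 438 TPM. Among them, Mpo was at means of 259, 201, 85.2 and 35.5 TPM and Elane at 270, 275, 156 and 127 TPM. Prtn3 moved less, at 164, 168, 134 and 126 TPM, and Ctsg was at 109, 129, 114 and 101 TPM. The 8 markers of the B lineage summed to 177 to 265, 94.3 to 230, 124 to 186 and 79.6 to 128 TPM. The part of these marrow cells in the changes of the subunit genes was not tested.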

How the data were processed

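Bone marrow RNA of 24 mice was measured, 6 per group, grouped by their labels. According to the methods and labels of the study, ISOGEN-LS was used for RNA, an MGIEasy directional kit for libraries, the DNBSEQ-G400 for sequencing, STAR 2.6.1 for mapping to mm10, and RSEM 1.3.1 for abundance. The values that the authors deposited are TPM of 54752 genes and sum to 999999.5 to 1000001.1 per library. No counts are given, so counting error is unknown, and the strand setting is not given in the sources used here. Gene IDs were matched to GENCODE M21 on GRCm38 (53861 with version, 862 only without it, 4 of them members, and 29 unmatched).

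The 12373 genes with a TPM above 1 in some library were tested on log2(TPM + 1) by limma (3.58.1, under R 4.3.3), fitting group means over all libraries. The 4 comparisons and their interaction were adjusted over all tested genes by Benjamini-Hochberg. The members, gene lists and tests were chosen with earlier results of these data known. All members may be named, and fuller values are given for core subunits, tissue isoforms, the most abundant member of each complex, and the 3 largest rises and falls per comparison at a mean of at least 5 TPM. Ndufb11 and Ndufb4, and the genes named outside the members, were chosen after their values were seen. The single-gene results of 1 member are not reported here.

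Alternatives were a pseudocount of 0.1, no filter, a filter over 6 libraries, median-of-ratios scaling, quantile normalization, removal of the 5 small RNAs or of the trend with length and GC content, a mean-expression trend, fits of the compared groups, an adjusted p under 0.05, a fold change of 2, a block for mouse number, and single libraries left out. The limma fit and the removal of the trend were tried on simulated data, and median-of-ratios scaling on libraries multiplied by known factors. The simulation held no shift of the median of all genes and no differences in small RNA share. It therefore cannot show how the calls depend on either. Python 3.11.15, numpy 2.4.6, pandas 2.3.3 and matplotlib 3.10.9 were also used.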

Additional observations from a re-analysis of the deposited data

Results flagged for a closer look

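In 152 groups of 6 mice, made of sums per complex and the core and tissue-form genes, 7 held a value whose gap to the next exceeded Dixon's 95% critical value, about the 1 in 20 that chance gives. In FL-KO mice, number 02 stood lowest for Ndufs8 at 10.85 TPM (others 15.09 to 16.96) and Cox8a at 90.83 TPM (others 115.65 to 128.64). This library had 59.3% of its TPM in the 5 small RNAs, and the part of that share was not tested. FL-KO 01 was lowest for Cox6a2 at 2.02 TPM. Cox7a1 was highest in FL-WT 10 at 1.69 TPM and in GC-KO 02 at 1.83 TPM. GC-WT 10 was highest for Cox7a2 at 96.71 TPM (others 53.07 to 67.9), and GC-WT 03 lowest for Atp5g2 at 65.55 TPM (others 82.24 to 91.21).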

How the results depend on the processing

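Counts of members called lower and higher depended on the scale. Shares of all genes called are given above for the main fit, a fold change of 2, median-of-ratios scaling and removal of the trend only. Under the other settings, single libraries left out among them, the counts of members cannot be set against such a share. Runs of 4 values are for flight in wild-type mice, flight in Nrf2-KO mice, Nrf2 loss on the ground and Nrf2 loss in flight. The counts were 0, 0, 2 and 7 lower and 66, 52, 61 and 55 higher with median-of-ratios scaling, with a median relative to all genes of 0.31 for flight in Nrf2-KO mice. They were 0, 2, 4 and 8 lower and 44, 34, 59 and 59 higher with quantile normalization. Without the 5 small RNAs, 10 and 8 were lower with flight and 22 with Nrf2 loss on the ground, and 10 were higher with flight in Nrf2-KO mice and 18 with Nrf2 loss in flight. With the trend of GC content and length removed, 0 and 3 were lower in the comparisons of flight, 38, 22, 38 and 28 were higher, and the relative medians for Nrf2 loss were 0.14 and 0.03. The gap of core and other members for Nrf2 loss was -0.25 and -0.19 with quantile normalization and -0.20 and -0.17 with the trend removed. With a pseudocount of 0.1, 1 and 0 members rose with flight, and the relative median in Nrf2-KO mice was 0.30. With no filter, 1 and 0 rose with flight, 4 fell and 12 rose with Nrf2 loss on the ground, and the relative medians were 0.07, -0.05, 0.07 and -0.02. With a mean-expression trend, 0 rose with flight in Nrf2-KO mice. In fits of the compared groups alone, 0 rose with flight in wild-type mice and 11 fell with Nrf2 loss on the ground. At an adjusted p under 0.05, 0 and 0 were higher with flight, 10 were lower with flight in Nrf2-KO mice, and 4 were lower and 11 higher with Nrf2 loss on the ground. With a fold change of at least 2, all 8 counts were 0. Chosen after the data were seen, leaving out the 4 libraries high in small RNA gave 0 lower and 0 higher for flight in wild-type mice, and 13 and 8 for Nrf2 loss on the ground. The cause of these changes was not tested.

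Direction was reversed for some falls. For flight in Nrf2-KO mice, median-of-ratios scaling gave log2 fold changes of 0.16 for Atp5g2, 0.06 for Cox6a2, 0.13 for Cox8a, 0.12 for Ndufa10, 0.10 for Ndufb11, 0.12 for Ndufs3, 0.01 for Uqcrc1 and 0.10 for Uqcrfs1. Quantile normalization gave 0.04 for Atp5g2, 0.10 for Cox6a2, 0.12 for Ndufa10, 0.10 for Ndufs3 and 0.02 for Uqcrfs1, and removal of the trend 0.09 for Atp5g2, 0.01 for Cyc1 and 0.04 for Ndufa10. For Nrf2 loss in flight, median-of-ratios scaling gave 0.03 for Cox6a1, 0.03 for Cox8a, 0.02 for Ndufa10, 0.11 for Ndufa13, 0.00 for Ndufa9, 0.11 for Ndufs3 and 0.03 for Ndufs7. Quantile normalization gave 0.11 for Ndufa10, 0.10 for Ndufa13, 0.07 for Ndufa9, 0.18 for Ndufs3 and 0.05 for Ndufs7, and removal of the trend 0.11 for Cox6a1, 0.03 for Cox8a, 0.05 for Ndufa10, 0.26 for Ndufa13 and 0.11 for Ndufs7. Among these, Ndufs3 with quantile normalization (limma, adjusted p = 0.0257) and Ndufa13 with the trend removed (limma, adjusted p = 0.0163) were called higher. For Nrf2 loss on the ground, median-of-ratios scaling gave 0.00 for Atp5b, and removal of the trend 0.10 for Cyc1 and 0.01 for Uqcrc1. For flight in wild-type mice, median-of-ratios scaling gave 0.02 for Cox6b2.

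With single libraries left out, flight in wild-type mice gave 0 (without GC-WT 06 or FL-WT 05) to 9 (without FL-WT 07) lower and 0 (without GC-WT 03, 05 or 07 or FL-WT 10) to 12 (without GC-WT 10) higher, with relative medians of 0.24 to 0.36. It gave 5 lower without FL-WT 08, and 2 without GC-WT 03 or GC-WT 10. Flight in Nrf2-KO mice gave 9 (without FL-KO 02) to 18 lower, with 10 without GC-KO 11 and 11 without GC-KO 12, and 0 to 1 higher, with 0.14 to 0.20. Nrf2 loss on the ground gave 3 (without GC-KO 04) to 12 (without GC-WT 03) lower, with 4 without GC-KO 01 or GC-WT 08, and 11 (without GC-WT 03) to 32 (without GC-WT 10) higher, with 0.28 to 0.35. Nrf2 loss in flight gave 11 (without FL-WT 07, FL-WT 08 or FL-KO 02) to 24 lower and 2 to 3 higher, with 0.16 to 0.23. The interaction was called in 0 members in each of these fits. Of 66 single calls examined, 34 were kept in every fit without a library. Mouse numbers shared by ground and flight mice were not taken as pairs, since no source says what they mark and not every pair's correlation was over 0.1 (-0.03 to 0.27), although 5 of 12 mice were closest to their own number. With the number as a replicate block, 4 members fell with flight in wild-type mice.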
